A study of Homo sapiens with 10 samples.

Results

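The mucin genes MUC1, MUC3A, MUC4, MUC5AC, MUC5B, MUC13, MUC16 and MUC20 were described in 10 RNA sequencing libraries of H460 and A549 cells, both established human lung cancer cell lines. They were found by their symbols and made up 8 of the 46427 genes in the deposited table. All 10 libraries hold poly(A) RNA of these lines, with no genetic change named in the labels. Parental H460 cells in 2D culture gave 3 libraries. H460 cells that had survived a drug gave 1 library for cisplatin (CR, 4 µM), 2 for paclitaxel (PR, 5 nM) and 1 for doxorubicin (DR, 0.5 µM), each after 3 days of drug and 3 days of fresh medium before re-plating. Tumor spheroid (TS) cells, labelled CTC after their culture method, gave 1 library of H460 and 1 of A549, and A549 cells in 2D culture gave 1 library. TS cells were held in suspension on coated plates in a medium with B27 and growth factors and with no serum listed, so suspension and medium cannot be told apart. Nothing in the labels says that replicates came from separate cultures, so the p-values measure the spread between these libraries, which may be technical.

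Mucins are large glycoproteins whose long repeats, rich in serine, threonine and proline, carry dense O-linked sugar chains. MUC5AC and MUC5B are secreted and form the gel of airway mucus, the first mainly from goblet cells and the second also from glands. MUC1, MUC4, MUC13, MUC16, MUC3A and MUC20 are tethered to the cell membrane, where they form part of the surface coat and bear on growth factor receptors. O-glycan synthesis starts in the Golgi with the GALNT enzymes and goes on with the enzymes that extend and cap the chain.

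The repeats are shown because they bear on how reads of these genes can be counted. In a stretch of the longest coding transcript of MUC5AC (GENCODE 29, bases 7555 to 7674), capitals mark the exact copies of its most frequent unit of 24 bases, which the whole transcript holds 16 times without a change. In the same way for MUC1 (bases 1254 to 1373), capitals mark a unit of 60 bases that occurs 19 times.
MUC5AC repeat: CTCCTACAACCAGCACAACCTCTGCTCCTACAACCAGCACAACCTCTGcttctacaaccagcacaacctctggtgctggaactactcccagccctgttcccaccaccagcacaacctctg
MUC1 repeat: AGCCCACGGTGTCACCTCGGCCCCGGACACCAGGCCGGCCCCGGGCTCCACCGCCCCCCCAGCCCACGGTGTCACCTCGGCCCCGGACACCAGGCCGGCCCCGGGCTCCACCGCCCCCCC
Of all windows of 50 bases in the longest coding transcript, 42.4% occurred more than once in MUC1, 29.2% in MUC5B, 28.3% in MUC4, 21.4% in MUC5AC and 19.7% in MUC20, but under 2% in MUC3A and MUC16 and 0 in MUC13. Windows shared with other genes were a different matter. They made up 69.1% of MUC20, where the pseudogene MUC20P1 alone held 46.6%, against 3.67% of MUC3A, 2.29% of MUC5B, 0.379% of MUC5AC and 0 of the remaining members. The values of MUC20 are therefore uncertain between it and its copies, and MUC20P1 is given beside it.

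The mucin genes lay in a few clusters of GRCh38 (GENCODE 29). MUC5AC (chr11:1157953-1201138) and MUC5B (chr11:1223066-1262172) follow each other on the plus strand, next to MUC2. MUC20 (chr3:195720882-195741123, plus strand) and MUC4 (chr3:195746765-195812277, minus strand) are neighbours, and MUC3A (chr7:100949555-100968346, plus strand) adjoins MUC12 and MUC17. MUC1 (chr1:155185824-155192916), MUC13 (chr3:124905442-124953819) and MUC16 (chr19:8848844-8981342) lie on minus strands away from other mucins. Antisense or overlapping transcripts are annotated over MUC1, MUC3A, MUC5B and MUC20, and the use of strand in counting is not given in the sources used here.

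Library depth ran from 59499787 to 89541774 reads on genes, and the reads of a gene are given as such or as CPM, scaled to 1000000 reads on genes. Genes with at least 1 read numbered 21036 to 21603 in the parental libraries, 21154 in H460 TS cells and 21880 and 22762 in A549 cells, but 22720 in CR, 25781 and 26133 in PR and 26745 in DR cells. This rise in genes with few reads goes along with the low mucin counts of the drug-resistant libraries below, and its part in them was not tested. The keratins KRT8 and KRT18, found in simple epithelia, were high in every library, at 190.4 or more FPKM (fragments scaled for transcript length and library size). The epithelial adhesion genes EPCAM and CDH1 were near 0 in H460 cells, at most 0.114 and 0.027 FPKM, while in A549 cells CDH1 stood at 9.29 and 11.9. The immune genes PTPRC and CD3E stayed at or under 0.157 FPKM everywhere, and the alveolar genes other than ABCA3 at or under 0.427.

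**Figure D1:**
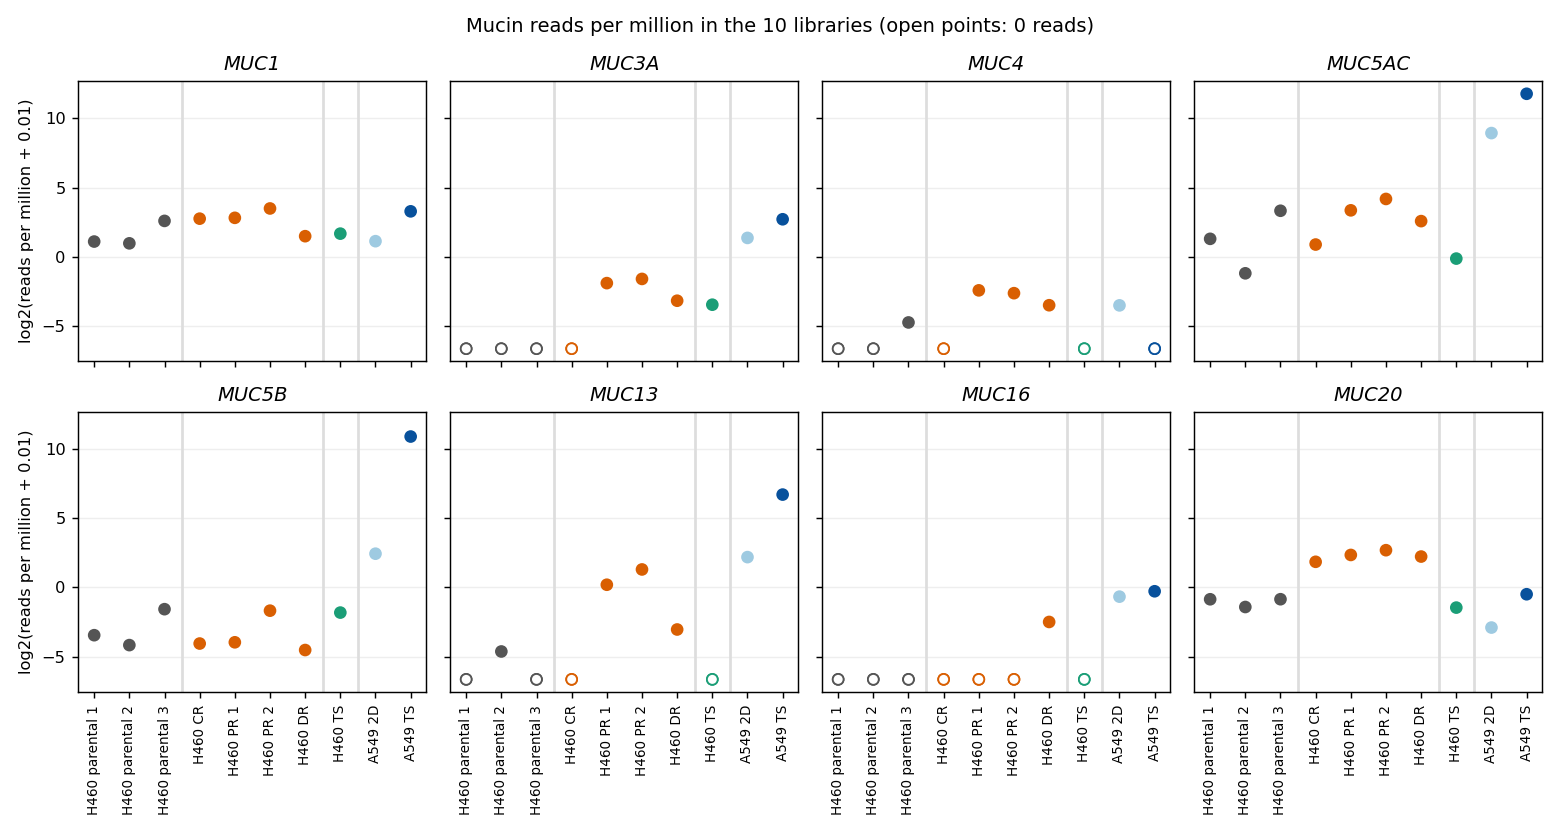
CPM, as log2(value + 0.01), for each of the 8 mucins (panels) in each of the 10 libraries (x axis), with open points for libraries with 0 reads. MUC5AC, MUC5B, MUC13, MUC3A and MUC16 were higher in both A549 libraries than in parental and TS H460 cells, and MUC20 was higher in the 4 drug-resistant libraries than in the 3 parental ones.

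Levels that can be compared between genes are given in FPKM. In parental H460 cells MUC1 had the highest level in each library, on average 1.12 ± 0.77 FPKM (SD, n = 3). MUC5AC at 0.205 ± 0.24 and MUC20 at 0.166 ± 0.032 came next, and their spreads overlapped. MUC5B, MUC13, MUC4, MUC3A and MUC16 were each under 0.015 FPKM in every parental library. In A549 cells in 2D culture MUC5AC led with 24.1 FPKM, ahead of MUC13 at 1.36 and MUC1 at 0.883. In A549 TS cells MUC5AC reached 173.0 FPKM and ranked 287 among all genes, MUC5B reached 92.1 and ranked 580, and MUC13 reached 31.3. No mucin except MUC1 and MUC20 exceeded 1 FPKM in any H460 library. The FPKM of MUC1 also varied for the same number of reads, from 0.218 FPKM per CPM in parental replicate 1 to 0.479 in parental replicate 2, and the table lists 21 transcripts for this gene. In CPM the order of those libraries was the opposite, 2.13 and 1.95, so MUC1 is compared below by reads.

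The first question was how mucins differed between drug-resistant and parental H460 cells. MUC20, a membrane mucin known to bind the receptor MET, was the member that rose. Its CPM values were 0.543, 0.365 and 0.545 in the parental libraries, 3.60 in CR, 5.08 and 6.45 in PR and 4.69 in DR cells. All 4 drug-resistant libraries were above all parental ones. The means were 4.96 ± 1.18 (SD, n = 4) and 0.484 ± 0.10 (n = 3), and the edgeR fold change was 9.55 (log2 3.25 ± 0.32 SE, adjusted p = 0.000207). The pseudogene MUC20P1, which shares windows with it, went the same way, with 10, 5 and 8 reads in the parental libraries and 85 in CR, 120 and 144 in PR and 120 in DR cells (log2 3.79 ± 0.46, adjusted p = 0.000391). Library names were written in 2 forms, and MUC20 was higher within both, by 3.23 on the log2 scale among names without a hyphen and by 3.75 among the others. In bulk RNA, more cells with MUC20 and more MUC20 RNA per cell cannot be told apart.

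MUC1, the membrane mucin whose tail can take part in signalling, was measured at 2.13, 1.95 and 6.02 CPM in parental, 6.73 in CR, 7.02 and 11.2 in PR and 2.79 in DR cells. Parental replicate 3 and the DR library made the groups overlap, and the log2 difference of 0.94 ± 0.49 did not pass (edgeR adjusted p = 0.163). Without parental replicate 3 it was 1.64 with an adjusted p of 0.0303. MUC5AC varied most among the parental libraries, with 2.44, 0.426 and 10.0 CPM against 1.83 in CR, 10.2 and 18.1 in PR and 5.95 in DR cells. The groups overlapped here too, and the log2 difference of 0.92 ± 0.87 had an edgeR adjusted p of 0.436. Within the forms of library name the log2 ratios were 0.78 and 1.83 for MUC1 and 0.72 and 4.34 for MUC5AC. Of the 8 members only these 3 had enough reads for this test, and 1 of the 3 was higher and 0 lower, where 18.5% of the 18398 genes tested were higher and 15.3% lower. The median log2 fold change of the 3 was 0.94, against 0.06 for all genes tested.

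**Figure D2:**
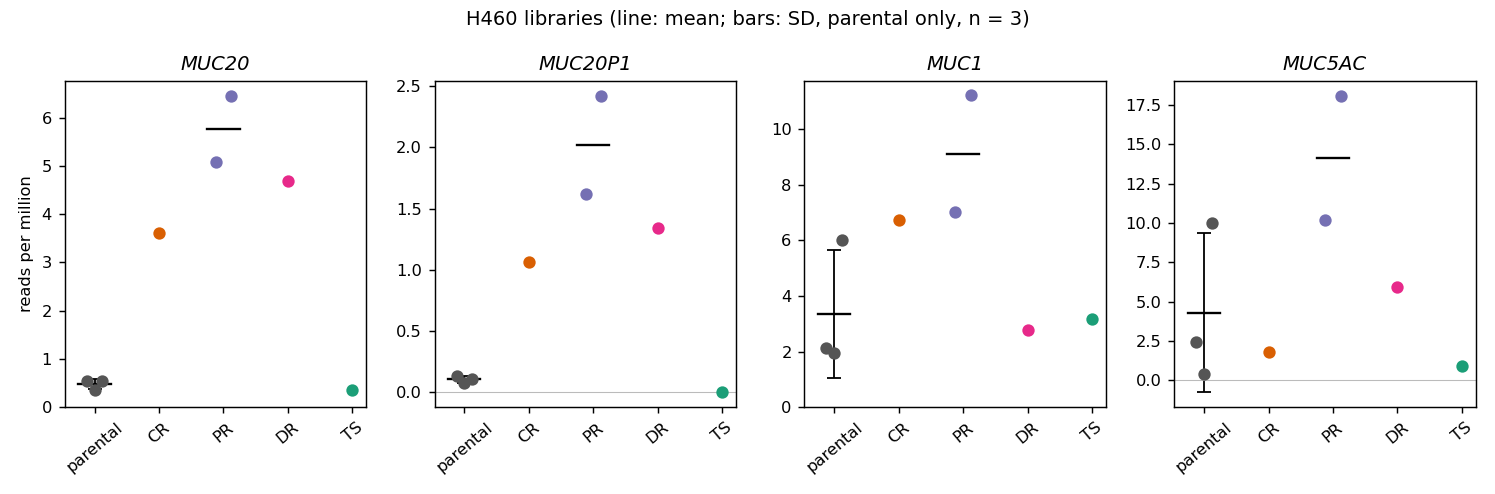
CPM (y axis, a scale for each panel) of MUC20, its pseudogene copy MUC20P1, MUC1 and MUC5AC in the H460 libraries, with points for libraries, lines for the means of parental (n = 3) and PR cells (n = 2) and bars for the SD of parental cells. MUC20 and MUC20P1 were higher in every drug-resistant library than in every parental one, while MUC1 and MUC5AC overlapped.

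Members with few reads differed by drug, and these differences between drugs were not tested. MUC13, a membrane mucin of gut and airway epithelium, had 84 and 146 reads in the PR libraries and 10 in DR, but 0 in CR and 0, 2 and 0 in parental cells. MUC3A, best known from the intestine, had 19 reads in each PR library, 9 in DR, and 0 in CR and in every parental library. MUC4, which binds the receptor ERBB2, had 13 and 9 reads in PR, 7 in DR, 0 in CR and 0, 0 and 2 in parental cells. MUC16, the CA125 antigen, had 15 reads in DR and 0 in all other H460 libraries. A count of 0 allows up to 3 reads in that library. MUC5B stayed between 3 and 24 reads in the H460 libraries and showed no order by drug.

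For single drug libraries a log2 difference of log2(FPKM + 1) from the parental mean was used, with no test, and this scale understates genes with a low FPKM. MUC20 differed by 1.20 in DR and by 0.97 in CR cells, although in CPM it was 9.68 and 7.44 times the parental mean. MUC1 differed by 0.63 in CR and by -0.07 in DR cells, and in CPM it was 2 and 0.83 times the parental mean. Among genes that reached 1 FPKM in a library compared, which include 2 members, 5.84% were more than 2-fold higher in CR and 5.76% in DR cells, and 0 and 1 members were. Of these members MUC20 reached 1 FPKM only in the drug libraries, so nothing is read from that share.

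PR cells were compared with the same parental libraries, so the values of this comparison are not independent of the former. MUC20 was again higher (log2 3.36 ± 0.39, edgeR adjusted p = 0.00148), and MUC20P1 with it (log2 4.0 ± 0.50, adjusted p = 0.00182). MUC13 was higher by 7.12 ± 0.90 on the log2 scale (edgeR adjusted p = 0.00187), which rests on 2 parental reads in all. The pooled ratio for MUC13 was 183.3, with an exact 95% counting interval of 50.2 to 1523. MUC3A was higher with an edgeR adjusted p of 0.00616, and against 3 reads over the parental libraries it was at least 20.2-fold higher in PR cells. It no longer passed without PR replicate 1 (adjusted p = 0.0682) or PR replicate 2 (adjusted p = 0.107). MUC4 was higher at 17.5 times the pooled parental level, with an exact 95% counting interval of 4.31 to 153.9 (edgeR adjusted p = 0.0303). That call was lost without parental replicate 2 (adjusted p = 0.0773) or PR replicate 2 (adjusted p = 0.25).

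The more abundant members of PR cells were less clear. MUC1 in both PR libraries lay above all parental ones, but the log2 difference of 1.22 ± 0.51 had an edgeR adjusted p of 0.0995. MUC5AC lay above them too, by a margin of 10.2 against 10.0 CPM (log2 1.5 ± 0.90, edgeR adjusted p = 0.234). Both passed without parental replicate 3, at 1.97 (adjusted p = 0.00978) and 3.08 (adjusted p = 0.0214). MUC5B had 4 and 18 reads in PR cells and 6, 3 and 24 in parental cells, a log2 difference of -0.02 ± 0.97 (edgeR adjusted p = 0.988). MUC16 had too few reads to be tested. In this comparison 17.5% of the 19430 genes tested were higher and 10.6% lower. Of the 7 members tested, 4 were higher and 0 lower, but MUC13, MUC3A and MUC4 reached the read minimum only through the PR libraries where they are high, so nothing is read from that share.

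Other genes of the mucin pathway were taken as lists. Among 15 other mucins and mucin-like genes, 5 had enough reads in the drug-resistant comparison and 3 were higher, beside 18.5% of all genes tested. With so few genes nothing is read from that share. MUC19, a gel-forming mucin of salivary glands, was the most changed, with 4, 9 and 8 reads in parental cells, 116 in CR, 1089 and 560 in PR and 315 in DR cells (log2 6.04 ± 0.82, edgeR adjusted p = 0.000639). MUC12, next to MUC3A, was higher by 2.93 and OVGP1, the oviduct glycoprotein, by 1.41. In PR cells MUC2, the intestinal gel mucin next to MUC5AC, was also higher, with 48 and 47 reads against 2, 0 and 0 (edgeR adjusted p = 0.0035). It reached the read minimum only through the PR libraries.

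The glycosylation enzymes moved both ways. Of 16 tested GALNT enzymes, which put the first sugar on serine or threonine, 7 were higher and 4 lower in drug-resistant cells (median log2 0.39, all genes 0.06). Of all genes tested, 18.5% were higher and 15.3% lower. The largest differences, in GALNT17 (3.79), GALNT3 (3.63), GALNT9 (3.46) and GALNT15 (2.45), were in enzymes that did not exceed 0.619 FPKM in these cells. GALNT9 had too few reads to be tested in PR against parental cells and entered the drug-resistant test through the CR and DR libraries. Nothing is read from the share or the median of these enzymes. Of 10 extension enzymes 2 were higher, the branching enzymes GCNT4 by 3.78 and GCNT3 by 2.91, a share near that of all genes tested. In PR cells 3 of 11 were higher, beside 17.5% of all genes tested. The fucosyltransferase FUT3 changed most (8.10), from 0 FPKM in the parental libraries to 0.116 and 0.238. FUT3 entered this test only through the PR libraries, so nothing is read from that share.

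Secretory products divided as well. In drug-resistant cells CLCA2 (7.90), FCGBP, which binds mucin gels (4.67), and the protease inhibitor SLPI (1.82) were higher of 5 tested. Of all genes tested, 18.5% were higher and 15.3% lower, and nothing is read from a share of 5 genes. AGR2, the disulfide isomerase needed for mucin folding, was lower by 1.59 on the log2 scale (edgeR adjusted p = 0.00859). Its level fell from 175.0 to 345.2 FPKM in parental cells to 50.2 to 135.7 in the drug-resistant libraries. Of 12 regulators tested 5 were higher, CREB3L1 (4.72), ELF3 (2.96) and EHF (2.42) among them, and 0 were lower, beside the same shares of all genes. In PR cells 6 of 14 were higher, beside 17.5% of all genes tested. They were led by SPDEF, a factor of goblet cell differentiation, at 0.135 and 0.101 FPKM against 0 in each parental library. SPDEF entered this test only through the PR libraries, so nothing is read from that share.

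Of 13 partners and sheddases tested in drug-resistant cells 0 were higher and 1 was lower, the protease ADAM10 (-0.61), beside 18.5% and 15.3% of all genes tested. Of the 12 neighbours of the mucin clusters, which are not mucins themselves, 3 were higher and 1 lower, beside the same shares of all genes. ACHE, in the region of MUC3A, was higher by 4.34, while MUC3A had too few reads to be tested. Markers of other cell types moved along in part. CD68 (1.37), VWF (2.27), COL1A1 (4.35) and DCN (3.09) were higher in drug-resistant cells. So were the alveolar gene NAPSA (2.67) and DNAH5 (1.32), a gene of ciliated cells. The summed FPKM of the 3 immune genes ranged from 15.0 to 16.9 in parental and from 30.7 to 57.9 in drug-resistant cells, nearly all of it CD68. That of the 3 endothelial genes was at most 0.139, and that of the 3 fibroblast genes 1.06 to 4.42 and 5.50 to 13.4. Their part in the mucin values was not tested.

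**Figure D3:**
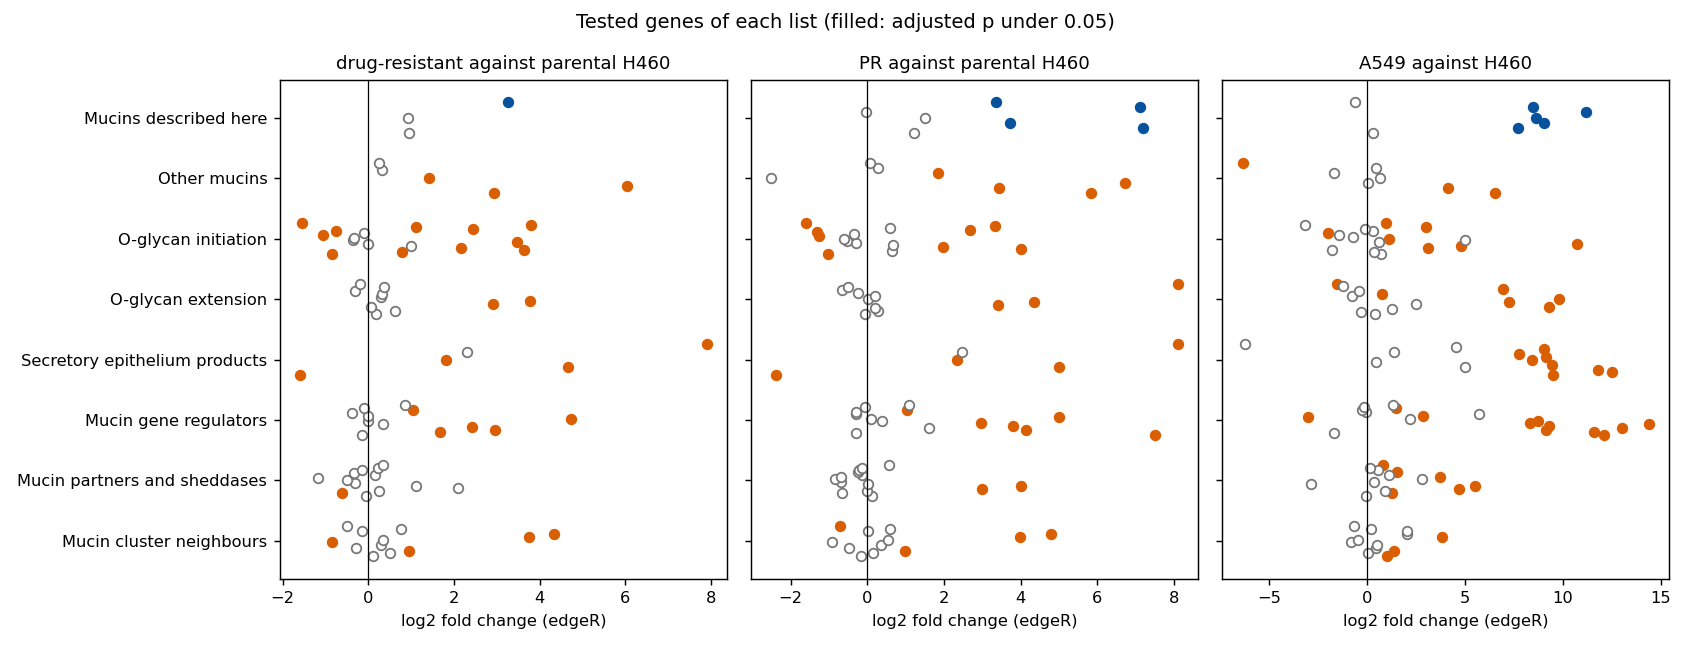
Log2 fold changes from edgeR (x axis) of the tested genes of each list (rows) in drug-resistant against parental H460, PR against parental H460 and A549 against H460 cells, with filled points for an adjusted p under 0.05. Called genes among the 8 mucins (top row) lay to the right in all 3 panels, while called GALNT enzymes lay on both sides.

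The next question was how mucins differed between A549 and H460 cells. The comparison took 2 A549 and 4 H460 libraries, 2D and TS, with the culture as a covariate, and all of them but parental replicate 2 share 1 form of library name. MUC5AC had 490.7 CPM in the 2D and 3514 in the TS library of A549, against 2.44, 0.426 and 10.0 in parental and 0.902 in TS H460 cells (log2 9.02 ± 1.70, edgeR adjusted p = 0.0116). In 2D culture alone the pooled ratio to parental H460 cells was 110.7, with 1 A549 library. MUC5B had 349 and 134110 reads in the A549 libraries, against 6, 3, 24 and 17 in H460 cells (log2 8.62 ± 1.93, edgeR adjusted p = 0.0213). Without parental replicate 1 its adjusted p was 0.0559 and without parental replicate 2 it was 0.0719. In neither gene did the lines overlap.

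MUC13, MUC3A and MUC16 had few or no reads in these H460 libraries. MUC13 had 294 and 7321 reads in A549 cells against 2 reads in all 4 H460 libraries (log2 11.18 ± 0.95, edgeR adjusted p = 0.000643). In 2D culture alone it was 485.3 times the parental level, with an exact 95% counting interval of 133.1 to 4026. MUC3A had 165 and 456 reads against 5 in H460 TS and 0 in parental cells (edgeR adjusted p = 0.00153), at least 181.6-fold higher in A549 2D than in parental cells. MUC16 had 40 and 57 reads against 0 in all 4 H460 libraries, at least 66.2-fold higher (edgeR adjusted p = 0.0157), and without the A549 2D library its adjusted p was 0.0681. Fitted folds of such genes depend on the prior count that the model adds and are not given as bounds.

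MUC1 and MUC20 did not separate the lines. MUC1 had 2.17 and 9.72 CPM in A549 cells, around the 1.95 to 6.02 of these H460 libraries (log2 0.32 ± 0.80, edgeR adjusted p = 0.807). MUC20 had 0.124 and 0.701 against 0.354 to 0.545 (log2 -0.61 ± 0.91, edgeR adjusted p = 0.67). Its copy MUC20P1 went the other way without overlap, at 0.233 and 0.616 CPM in A549 cells against at most 0.136 in these H460 libraries. Its difference did not pass (log2 2.76 ± 1.37, edgeR adjusted p = 0.191). How reads shared by MUC20 and MUC20P1 were assigned is not known. Of 7 members tested 5 were higher and 0 lower, where 13.7% of 19941 genes were higher and 8.42% lower. MUC13, MUC3A and MUC16 reached the read minimum only through A549 cells, so this share is given without a reading. MUC4 had 5 reads in the 2D and 0 in the TS library of A549 and was not tested.

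The promoter of MUC13 is shown because this gene had the smallest adjusted p between the lines, and that of MUC1 because MUC1 had reads in every library of both lines. They are the 250 bases before the start in RefSeq on GRCh38.p14, which gave promoters for MUC1, MUC3A, MUC4, MUC13 and MUC16. The MUC13 window is chr3:124934752-124935001 on the minus strand, whose start lies inside the longer GENCODE gene. The MUC1 window is chr1:155192916-155193165, also on the minus strand. Capitals mark matches, on either strand, to TATAAA (the TATA box), GGGCGG (bound by SP1), TGTTTAC (forkhead factors) and CAAAGTCCA (HNF4A), searched with the values of these genes known.
MUC13 promoter: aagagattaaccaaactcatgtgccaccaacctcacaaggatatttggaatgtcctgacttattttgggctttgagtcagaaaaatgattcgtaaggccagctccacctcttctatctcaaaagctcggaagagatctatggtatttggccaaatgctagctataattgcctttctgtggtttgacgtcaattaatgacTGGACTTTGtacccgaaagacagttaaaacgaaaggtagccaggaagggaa
MUC1 promoter: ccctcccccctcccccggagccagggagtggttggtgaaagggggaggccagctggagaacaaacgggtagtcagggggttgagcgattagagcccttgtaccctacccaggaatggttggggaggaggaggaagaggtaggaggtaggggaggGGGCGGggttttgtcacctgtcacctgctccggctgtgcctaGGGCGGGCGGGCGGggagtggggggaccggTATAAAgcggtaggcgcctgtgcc
MUC13 held CAAAGTCCA, letters that the factor HNF4A is known to bind, on the opposite strand 51 bases before the start, as did 0.325% of all 35116 promoters. MUC1 held TATAAA 24 bases before its start, as did 10.7% of promoters, and GGGCGG at 4 places, 3 of them overlapping, a motif found in 42.6%. TGTTTAC, a forkhead motif that 2.98% of promoters hold, was in neither. These are matches of letters and not sites.

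Of 18 regulators tested, 10 were higher in A549 cells and 1 lower (median log2 4.29, all genes 0.03), beside 13.7% and 8.42% of all genes tested. HNF4A and SPDEF, at 0 in these H460 libraries, entered the test only through A549 cells, so nothing is read from the share. HNF4A was 5.51 and 6.93 FPKM in A549 cells and 0 in parental and TS H460 cells. SPDEF was at 0.831 and 13.7 FPKM and FOXA2, an airway forkhead factor, at 13.1 and 6.37, against at most 0.011 in these H460 libraries. Of 13 secretory products 8 were higher, led by BPIFB1, TFF1, BPIFA1 and TFF3. BPIFB1, BPIFA1 and TFF3 were all listed at 0 in A549 2D cells, so these calls rest on the A549 TS library. Of 13 extension enzymes 5 were higher and 1 lower. They included GCNT3, which branches mucin chains, at 17.5 and 43.6 FPKM against at most 0.094, and B3GNT3 at 1.71 and 12.6 against at most 0.013. Of 17 GALNT enzymes 6 were higher and 1 lower, led by GALNT6 and GALNT5. Of 14 partners 6 were higher, led by MSLN, the partner of MUC16 in cell adhesion (log2 5.54, edgeR adjusted p = 0.0235). The counts of these lists stand beside 13.7% higher and 8.42% lower of all genes tested. Genes such as B3GNT3 and GALNT6 entered the test only through A549 cells, so nothing is read from these shares. Among the other mucins MUC2 (6.53) and MUC12 (4.13) were higher and MCAM, an adhesion molecule also called MUC18, was lower (-6.34). Of the cluster neighbours 3 of 12 were higher, TOLLIP and AP2A2 among them, beside 13.7% of all genes tested. Of 5 epithelial markers tested 4 were higher in A549 cells too, CDH1, EPCAM, KRT18 and KRT8, beside 13.7% of all genes tested. The other, KRT19, lay the other way without passing (log2 -4.1, edgeR adjusted p = 0.114). Nothing is read from a share of 5 genes.

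TS culture was the last comparison, and in A549 cells the secreted MUC5B and MUC5AC and the membrane mucin MUC13 had more reads in TS than in 2D culture. MUC5B had 349 reads in 2D and 134110 in TS cells, 354.6 times the CPM, with an exact 95% counting interval of 319.2 to 395.0. MUC13 had 23.0 times the CPM in TS cells (interval 20.4 to 25.9), and MUC5AC 7.16 times (interval 7.08 to 7.24). With 1 library of each there was no test, and the intervals cover counting error only. Lesser ratios were found for MUC20 at 5.65 (interval 2.65 to 13.8), MUC1 at 4.47 (interval 3.73 to 5.41) and MUC3A at 2.55 (interval 2.13 to 3.07). MUC16 differed by less than its counting error, at 1.32 (interval 0.862 to 2.02). On the log2(FPKM + 1) scale 3 members were more than 2-fold higher, MUC5B by 6.21, MUC13 by 3.78 and MUC5AC by 2.79. They were 3 of the 4 members that reached 1 FPKM in an A549 library, where 6.7% of such genes were more than 2-fold higher. MUC5B reached 1 FPKM only in the TS library, as did MUC1, so nothing is read from that share. MUC5B thus went from a level of 0.259 FPKM, below MUC13 and MUC1, to 92.1, next below MUC5AC.

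In H460 cells TS culture showed nothing of the kind. MUC5B had 0.274 CPM in TS cells and 0.0815, 0.0457 and 0.327 in parental cells, within the parental range. MUC5AC at 0.902 and MUC1 at 3.17 CPM also lay within it. MUC20 at 0.354 was just under the lowest parental value of 0.365, and MUC20P1 had 0 reads. MUC3A had 5 reads against 0, while MUC4, MUC13 and MUC16 had 0. Only 1 member, MUC1, reached 1 FPKM in a library compared. It was not more than 2-fold apart on the log2(FPKM + 1) scale, where 1.93% of such genes were more than 2-fold higher. The other members lay too low for this scale to show a 2-fold difference, so nothing is read from their lack of one. In CPM, MUC5AC was at 0.21 times the parental mean.

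**Figure D4:**
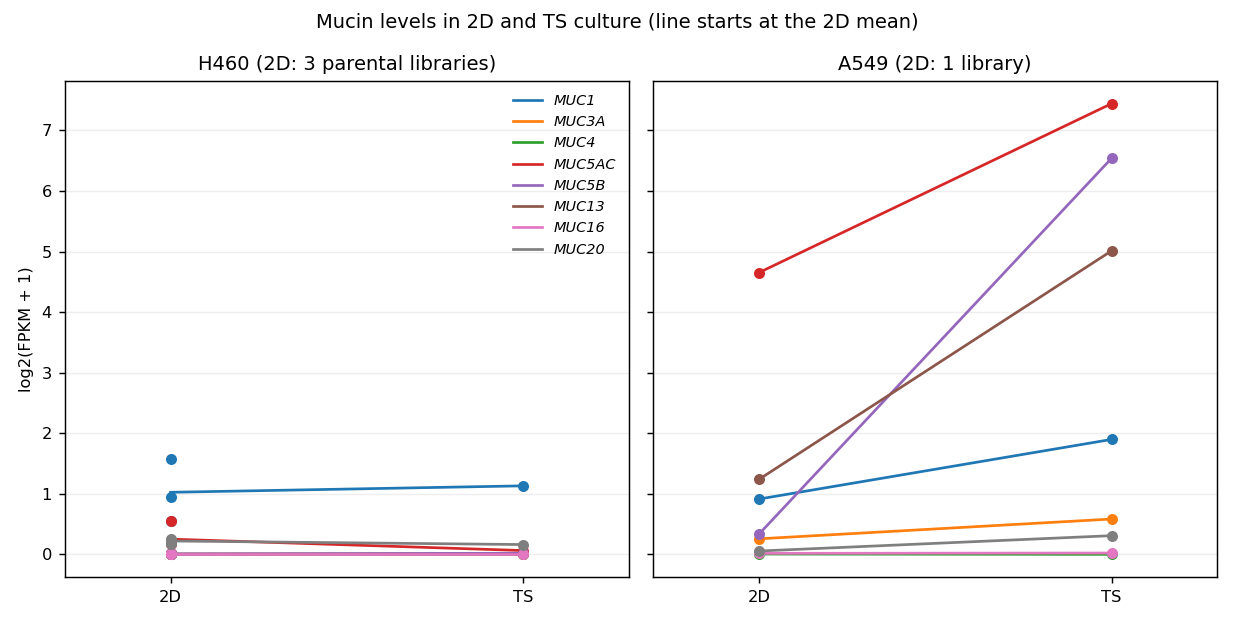
Log2(FPKM + 1) of the 8 mucins (lines) in 2D and TS culture of H460 cells (left, 3 parental libraries and 1 TS library) and A549 cells (right, 1 library each), each line starting at the 2D mean. In A549 cells MUC5AC, MUC5B and MUC13 reached 173.0, 92.1 and 31.3 FPKM in TS culture, whereas all H460 values stayed under 2 FPKM.

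Across both lines, with the line as a covariate, 0 of 7 members passed the test for TS against 2D culture in edgeR, where 0.186% of 19941 genes passed. At an unadjusted p under 0.05, 1627 genes did, among them MUC13 (log2 4.05 ± 0.99, adjusted p = 0.228) and MUC3A (log2 2.41 ± 0.86, adjusted p = 0.484). MUC5B had a log2 difference of 5.02 ± 2.38 with an edgeR adjusted p of 0.696, and limma and DESeq2 called no member. Without the H460 TS library MUC5B (8.52, adjusted p = 0.0136) and MUC13 (4.57, adjusted p = 0.0198) passed, and the A549 TS library then carries the comparison. The difference between the TS responses of the lines was tested by the interaction, for which only the parental libraries give a spread. MUC5B had the smallest adjusted p of the members (log2 7.69 ± 1.27, edgeR adjusted p = 0.0505), just over the threshold. It ranged from 0.000515 to 0.241 over the alternatives, and without parental replicates 1, 2 and 3 in turn it was 0.000515, 0.00199 and 0.0186. MUC13 (7.19 ± 2.71, adjusted p = 0.483) and MUC5AC (5.15 ± 2.06, adjusted p = 0.533) did not pass in edgeR, although MUC13 did in limma on log2(FPKM + 1), at 3.78 with an adjusted p of 0.0343. Without parental replicate 2 MUC5AC passed too (5.70, adjusted p = 0.0218). Of all genes tested 0.436% passed, and 0 of the 7 members.

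The companions of mucin secretion were also higher in the A549 TS library. Of 10 secretory products that reached 1 FPKM in an A549 library, 10 were more than 2-fold higher in TS cells (median log2 difference 4.66, all genes -0.07), beside 6.7% of all such genes. All of them but AGR2 reached 1 FPKM only in the TS library, so this count is largely fixed by the minimum. FCGBP went from 0.378 to 147.5 FPKM, LCN2, an antimicrobial lipocalin, from 0.265 to 122.9, lysozyme (LYZ) from 0 to 37.8 and the trefoil factor TFF1 from 0.699 to 52.0. AGR2 stood at 62.0 and 1322. Of 17 regulators 8 were more than 2-fold higher and 0 lower, with CREB3L1 from 0.238 to 13.3, SPDEF from 0.831 to 13.7 and EHF from 0.202 to 7.59. Of 9 extension enzymes 5 were higher, with ST6GALNAC1, which caps the first sugar with sialic acid, from 0.010 to 11.3 FPKM. Of the initiating enzymes 2 of 12 were, GALNT4 and GALNT5. These counts stand beside the same 6.7%. CREB3L1, SPDEF, EHF and ST6GALNAC1 reached 1 FPKM only in the TS library, so nothing is read from the shares of regulators and extension enzymes. LCN2 (8.74, edgeR adjusted p = 0.00369) and ST6GALNAC1 (9.62, adjusted p = 0.00369) were the genes on these lists that passed the test over both lines. In H460 cells LCN2 was 0.211 FPKM in TS and 0 in parental cells, and ST6GALNAC1 0.071 and 0. Of the other cell types, the basal marker TP63 reached 2.12 FPKM in A549 TS cells, and KRT8, KRT18 and KRT19 were more than 2-fold higher there. The part of these shifts in the mucin values was not tested.

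The genes most like each mucin over the 10 libraries were named by Pearson's r of log2(FPKM + 1), among 13439 genes that reached 1 FPKM in 2 libraries. With 10 points that share lines and drugs this is a description. MUC5AC was most like MST1R (0.998), ALDH2 (0.997) and MYO15B (0.997), and MUC13 was most like CYP26B1 (0.994), HLA-DMB (0.989) and MMP7 (0.989). MUC20 was most like CAPN3 (0.994), CCDC9B (0.992) and CHPF2 (0.988). MUC1 had no match as close, and was like MMP25-AS1 (0.911) and CHKB-CPT1B (0.901).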

How the data were processed

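Poly(A) RNA libraries were sequenced on HiSeq instruments. The authors deposited, for each library, a read count per gene as a whole number without normalization, and FPKM and TPM values, normalized for transcript length and library size. TPM was not used. The submitters' processing notes name bcl2fastq 1.8.4, Trimmomatic, HISAT2 2.1.0 and StringTie 2.1.3b with GRCh38. The handling of reads shared between genes is not given in the sources used here.

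Counts were tested with the quasi-likelihood test of edgeR 4.0.16 (TMM scaling, filterByExpr) in R 4.3.3, with Benjamini-Hochberg adjustment over all genes tested and a threshold of 0.05. SE is the fold change over the root of F. Fits compared 4 drug-resistant or 2 PR with 3 parental libraries, and 6 libraries with line and culture, with and without their interaction. The drugs form 1 group, so its spread includes differences between drugs. Lone libraries in the interaction are assumed to vary like parental ones. CR, DR and TS libraries have no replicate and were compared as log2(FPKM + 1), more than 2-fold counted. CPM are over reads on genes.

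DESeq2 1.42.0, limma 3.58.1 on FPKM, other scalings, no filter, the name form as covariate and each replicate left out were alternatives. Intervals (exact binomial) and the floor of 3 reads cover counting error only. Fits were tested on simulated data.

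The members, lists and motifs were chosen with earlier results of these data known. Named are the 8 members, at most 4 called genes a list and comparison with the largest change, and the 3 genes most like a member; other genes were named after their values were seen. Some genes that this rule takes are not reported here. Sequences are from GENCODE 29 and RefSeq (GRCh38.p14). Promoters of MUC5AC, MUC5B and MUC20 are not used here.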

Additional observations from a re-analysis of the deposited data

Results flagged for a closer look

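Among the 4 drug-resistant libraries, MUC16 had 0.168 CPM in DR cells and 0 in the others, and MUC5B had 0.303 in PR replicate 2, with the other 3 libraries at or under 0.0541. In both, 1 library lay far from the rest by Dixon's criterion. Chance meets it in about 1 of 20 groups, but with the other 3 libraries at 0, as for MUC16, any reads in the fourth would meet it. The 4 libraries are of 3 drugs, and these values rest on 15 and 18 reads.

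For 5 genes of the lists, markers of cell types left aside, the response to TS culture differed between A549 and H460 cells by the interaction test (edgeR, adjusted p between 0.0246 and 0.0419). Of those markers the keratin KRT19 passed too, with a log2 difference of 5.73. For the 5 genes the log2 difference of the responses was 13.6 for LYZ, 11.9 for CREB3L1, 7.70 for FCGBP, 5.49 for AGR2 and 4.75 for LGALS3. AGR2 was 62.0 FPKM in 2D and 1322 in TS culture of A549 cells, but 175.0 to 345.2 and 122.1 in H460 cells. LGALS3, the galectin that binds MUC1 sugars, was 16.1 and 90.4 in A549 cells but 403.7 to 590.5 and 108.8 in H460 cells. Each TS state is 1 library.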

How the results depend on the processing

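MUC20 was higher in drug-resistant and in PR cells under every alternative run, with adjusted p-values of at most 0.00224 and 0.018, and MUC13 was higher in PR cells and MUC13, MUC3A and MUC5AC in A549 cells under every one. Limma on FPKM was not run for MUC13 in PR cells or MUC3A in A549 cells, which fell short of its FPKM minimum. Without the filter MUC13 (6.16, adjusted p = 0.0268) and MUC3A (6.52, adjusted p = 0.0383) were also called in drug-resistant cells. MUC4 in PR cells was lost with DESeq2 (adjusted p = 0.128) and without the filter (adjusted p = 0.0672). The cause of these changes was not tested. MUC5B in PR cells changed sign, to 0.030 with DESeq2, 0.23 with upper-quartile scaling, 0.20 with library totals, 0.90 with the replicate block, and it ran from -1.64 to 0.75 with 1 replicate left out. For TS against 2D culture, leaving out the A549 2D or the A549 TS library, so that H460 cells alone give the difference, turned MUC1 (-0.086 and -0.086), MUC5AC (-2.26 and -2.26), MUC13 (-2.63 and -2.62) and MUC20 (-0.44 and -0.44), and MUC5AC turned to -0.03 without parental replicate 2. MUC16 gave no value there. Without H460 TS these were 2.21, 2.89, 4.57 and 2.53. For A549 against H460 cells MUC1 turned to -0.69 without H460 TS and -0.67 without A549 TS, and MUC20 to 0.99 without A549 2D. With 1 library left out, these ran up to 1.63 for MUC1 and down to -2.0 for MUC20. Of the other values of members in the fits, 279 kept direction and call, 17 gained a call and 10 lost one. For single libraries 41 values moved by less than 1 parental SD, and the other 63 did not meet that limit. The 63 include values of MUC3A and MUC16 that did not move, because the parental SD of these genes is 0. There was a sign change in no value that was more than 2-fold. The pseudocount of 0.1 for A549 TS cells was added after seeing the data.

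Over all genes, calls in PR cells were 5455, with 3026 and 2773 by limma with pseudocounts of 1 and 0.1, and 950 to 6661 with 1 replicate left out. Drug-resistant calls were 6220, and 4215 to 6585 with 1 left out. TS calls were 37, with 538 by DESeq2, 19 by limma with a pseudocount of 0.1, and 3 to 322 with 1 left out. Line calls were 4405, and 2359 to 3654 with 1 left out. Interaction calls were 87, with 542 by DESeq2, 27 and 13 by limma, 0 without the filter (1637 at an unadjusted p under 0.05), and 116 to 656 with 1 left out. The split into higher and lower calls was 3397 and 2823 in drug-resistant and 3391 and 2064 in PR cells, but 4210 and 2032, and 4252 and 1347, with upper-quartile scaling, and 4217 and 1410 in PR cells with library totals. These scalings moved the median of all genes from 0.05 to 0.30 and 0.26 in PR cells.

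PR and parental replicates 1 and 2 share only a number (Pearson's r of their differences 0.141 over 13536 genes). With the replicate block 6321 genes were called, against 6661 in the same 4 libraries without it, and MUC4 was lost (adjusted p = 0.0745). Genes with under about 10 reads in a library are limited by depth, which covers MUC3A, MUC4, MUC5B, MUC13 and MUC16 in most H460 libraries, and MUC1, MUC5AC and MUC20 there by the number of libraries.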
